A study of Mus musculus with 6 samples.

Results

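Translation initiation factors are the proteins that bring a ribosome to the start codon of an mRNA. They were followed here as the 47 genes, of 16081 in the deposited tables, whose symbols run from Eif1 to Eif6. The pattern matched 55 symbols, and 8 of them were set aside, namely the eIF2α kinases Eif2ak1 to Eif2ak4 together with Eif4ebp1, Eif2s1, Eif2b1 and Eif2b5. The rule reads gene symbols alone. RNA was sequenced from Lewis cells, an established line of mouse lung carcinoma cells, after 24 hours with DMSO (n = 3) or with SD70 (n = 3), a small-molecule inhibitor of the histone demethylase KDM4C. The sources used here give no SD70 dose for these samples, and no untreated cells or second cell line entered the comparison. The labels do not say that the samples were separate cultures, so each p-value measures only the spread between these samples.

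Initiation begins when eIF2, loaded with GTP and the initiator tRNA, joins the small ribosomal subunit together with eIF1, eIF1A, eIF3 and eIF5. The cap-binding complex eIF4F, built from the cap-binding protein eIF4E, the scaffold eIF4G and the RNA helicase eIF4A, recruits the mRNA, which is then scanned for a start codon. eIF5 makes eIF2 hydrolyse its GTP, eIF5B joins the large subunit, and eIF2B reloads eIF2 with GTP, the step that stress kinases act on. In tumour cells, eIF4F and its repressors are among the best known points where growth signals reach protein synthesis.

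The 6 libraries held 15276744 to 17060424 expected read counts and 14062 to 14105 genes above 0. The cell type was checked on marker genes. Krt8 and Krt18 were detected, while Epcam, Cdh1, Krt7 and Krt19 had at most 1 count in any library, and Vim, at 2489 ± 138 FPKM under DMSO (SD, n = 3), dominated the mesenchymal markers, of which Cdh2 had at most 1 count. Of the alveolar markers, Sftpc had at most 1 count and Napsa 65 to 85. Of the immune markers, Ptprc had at most 2 counts, Cd68 155 to 253 and Lyz2 11 to 26. Cd68 was called lower (13.6 and 9.60 FPKM under DMSO and SD70), and Lyz2 had a log2 fold change of 0.79 (edgeR adjusted p = 0.0256). Marker levels moved with treatment. The summed level of the 6 epithelial markers was 148 to 155 FPKM under DMSO and 94.5 to 106 under SD70, that of 3 mesenchymal markers 2436 to 2723 and 1736 to 1897, that of 3 fibroblast markers 52.0 to 55.0 and 38.9 to 42.3, and that of 3 immune markers 14.1 to 14.9 and 9.96 to 11.7. The 2 alveolar markers summed to 3.05 to 3.89 and 2.95 to 4.05 FPKM, and the 2 endothelial markers to 0.87 to 1.07 and 0.95 to 1.14. Their part in the values below was not tested. In bulk RNA, a change in the make-up of the cells and a change of RNA per cell cannot be told apart.

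SD70 was followed by a rise of many initiation factor mRNAs and a fall of few. Of the 47 members, 45 had enough counts for the test, and Eif2s3y (0 to 2 counts) and Eif4e1b (0 to 1 counts) did not. A call required an adjusted p-value below 0.01 in edgeR's quasi-likelihood test, with no minimum fold change. By this rule 18 of the 45 members (40%) were higher under SD70, beside 25.8% of the 11552 genes tested, and 4 (8.89%) were lower, beside 24.2% of all genes. The other 23 were not called, so 22 of 45 were called in either direction, beside 49.9% of all genes. Among genes with a mean of at least 1000 normalised counts, 16 of 37 members (43.2%) were higher and 3 (8.11%) lower, beside 31.9% and 25.7% of the 4049 such genes. Of the 11552 genes tested, 2976 were higher and 2791 lower. With library totals, 15 members were higher and 7 lower, beside 2630 and 3165 of all genes. Upper-quartile scaling also gave 15 and 7 members, beside 2599 and 3212 of all genes.

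The changes were small. The median log2 fold change of the members was 0.05, beside 0.00 for all genes tested, and their median absolute log2 fold change was 0.16, beside 0.25. A single member passed 2-fold, Eif1ad, whereas 3.29% of all genes rose and 2.61% fell by that much. The 3 SD70 samples lay entirely above the 3 DMSO samples for 19 members and entirely below for 9, beside 32.8% and 31.6% of all genes tested. The members together took 1.28% to 1.32% of all counts under DMSO and 1.43% to 1.45% under SD70. Their summed level was 6294 ± 78.9 FPKM under DMSO and 6840 ± 30.4 under SD70 (SD, n = 3 each), a ratio of 1.09. The call of 17 of the 22 members (14 higher and 3 lower) held under all 15 alternative analyses that kept the threshold, and the exceptions were Eif3d, Eif3h, Eif4a2, Eif4e and Eif5b.

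**Figure D1:**
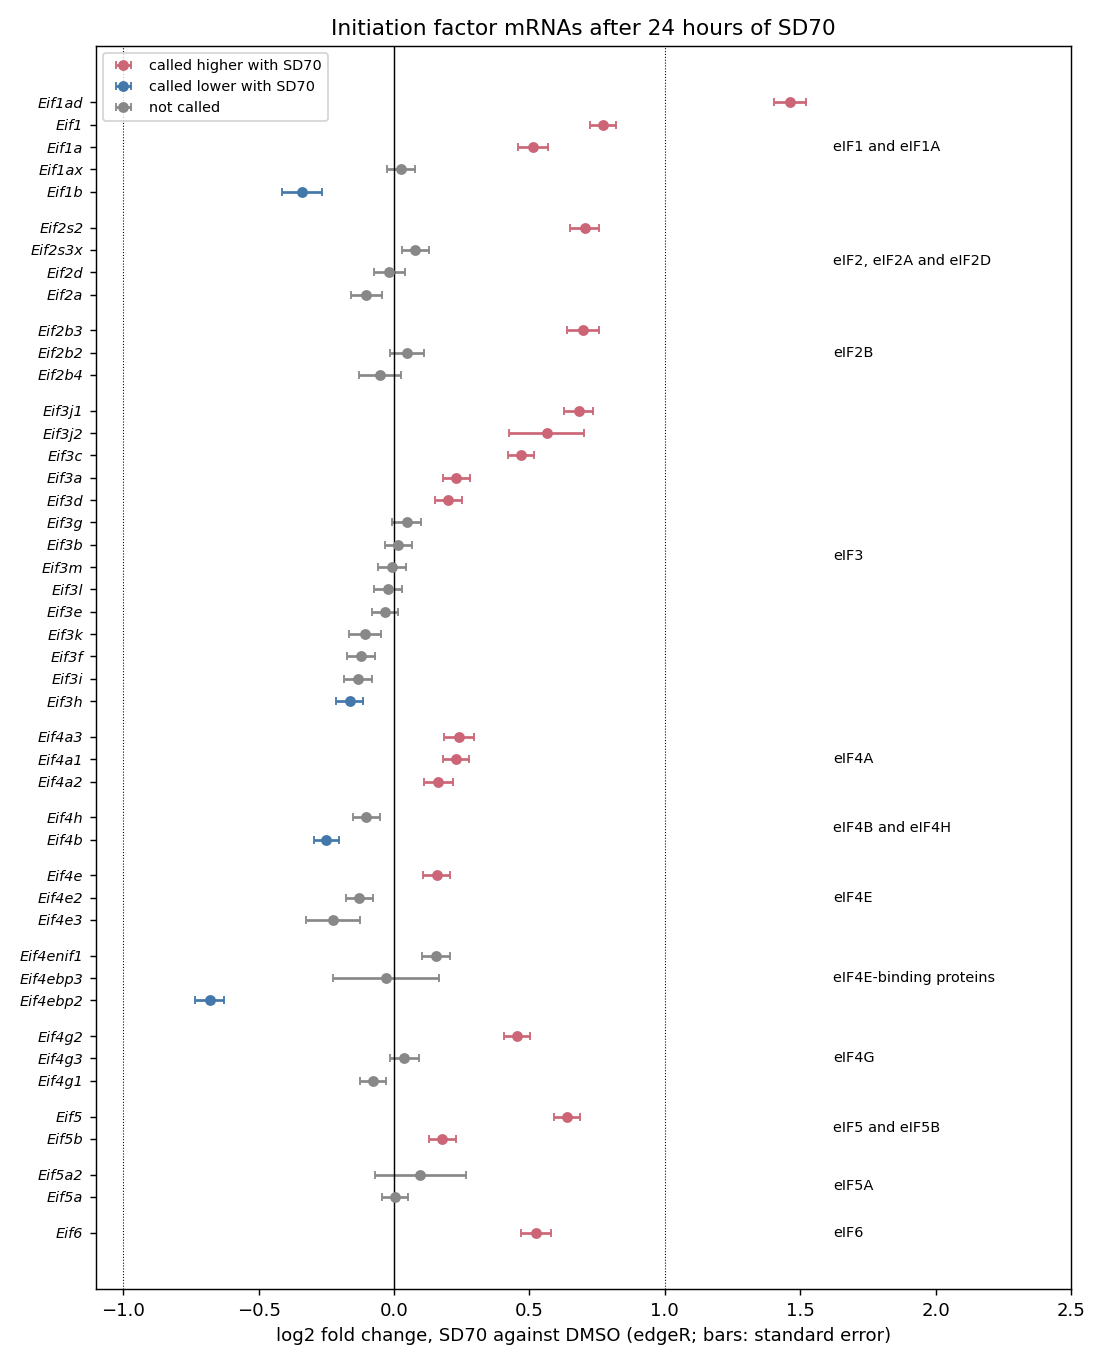
Log2 fold change of each of the 45 tested initiation factors, SD70 against DMSO (x axis; points are edgeR estimates and bars their standard errors), grouped by factor family and coloured by call. Eif1ad lies past the dotted line at 1, most points lie between -0.25 and 0.25, and only Eif1b, Eif3h, Eif4b and Eif4ebp2 are called lower.

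The eIF1 and eIF1A family held Eif1ad, the member with the largest change. eIF1 and eIF1A bind the small subunit beside the initiator tRNA, and eIF1 keeps scanning ribosomes from accepting a poor start codon. Of the 5 genes, 3 (60%) were called higher and 1 (20%) lower, beside 25.8% and 24.2% of all genes tested. Their summed level was 601 ± 16.9 FPKM under DMSO and 840 ± 26.1 under SD70 (SD, n = 3 each), a ratio of 1.40.

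Eif1ad (NCBI gene 69860, chr19:5366813-5371518, GRCm38), which encodes a protein with an eIF1A-like domain, had 844, 917 and 944 normalised counts under DMSO and 2369, 2435 and 2652 under SD70. Every SD70 sample lay more than 2-fold above every DMSO sample. It rose 2.76-fold, a log2 fold change of 1.46 (SE 0.0586, edgeR adjusted p = 4.51e-21), and 98.0% of the genes tested had a smaller absolute change. Its level was 22.5, 24.5 and 24.9 FPKM under DMSO and then 61.5, 63.3 and 69.2 FPKM. Eif1ad overlaps its neighbour Banf1 by 64 bases, and Banf1 had means of 1777 and 1967 normalised counts.

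Eif1 and its close paralog Eif1b moved in opposite directions. Eif1 (gene 20918, chr11:100319949-100322099) had 4732, 4968 and 5009 normalised counts under DMSO and 8141, 8415 and 8554 under SD70, a log2 fold change of 0.77 (SE 0.0487, edgeR adjusted p = 1.26e-15). Eif1b (gene 68969, chr9:120492606-120495327) had 610, 671 and 719 under DMSO and 492, 528 and 562 under SD70, a log2 fold change of -0.34 (SE 0.0728, edgeR adjusted p = 1.47e-04). Neither pair of groups overlapped. Eif1b made up 16.5% ± 0.679 of the summed Eif1 and Eif1b FPKM under DMSO and 8.45% ± 0.338 under SD70 (SD, n = 3 each). The exact permutation test gave p = 0.1 (two-sided), the smallest that 3 samples against 3 allow. The counts of Eif1 were not whole numbers in any of the 6 samples, so how reads were divided between genes bears on its value.

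Of the paralogs that encode eIF1A, Eif1a rose by a log2 fold change of 0.51 (SE 0.0555, edgeR adjusted p = 1.17e-09), from 2290, 2572 and 2581 normalised counts to 3731, 3283 and 3606. The X-linked Eif1ax had 2327, 2401 and 2426 under DMSO and 2292, 2542 and 2452 under SD70, so its groups overlapped (log2 fold change 0.03, edgeR adjusted p = 0.68). Eif1ax remained the more abundant transcript per length, at 193 ± 2.42 FPKM under DMSO and 194 ± 9.73 under SD70, beside 55.8 ± 3.63 and 77.9 ± 5.11 for Eif1a (SD, n = 3 each). The share of Eif1a in their sum was 22.5% ± 0.964 and 28.7% ± 2.29 (two-sided exact permutation p = 0.1).

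The sequences around the start codons of these factors are shown because eIF1 and eIF5 act on that choice. Vertebrate start codons usually carry a purine 3 bases before the ATG and often a G directly after it. Each window of 15 bases (GENCODE M21 transcript, GRCm38) gives that base, the start codon and the base after it in capitals.
Eif1: tcgtatCgtATGTcc
Eif1b: tagtgtCgcATGTcc
Eif1ad: gaaaccAgcATGTct
Eif1ax: tttgcgGccATGCcc
Eif5: taagccAaaATGTct
Eif2s2: actacaGccATGTcc
Eif4g2: gccgccAaaGTGGag
Neither Eif1 nor Eif1b carried the purine, and neither had a G after the start codon. A purine stood at this base in 41 of the 47 members (87.2%), beside 86.5% of the 10981 tested genes with a window. The 6 members without one were Eif1, Eif1b, Eif3b, Eif4e1b, Eif4h and Eif6. A G followed the start codon in 48.9% of members, beside 53.7% of tested genes. An ATG occurred in the 5′ leader of 15 members (31.9%), among them 7 of the 18 called higher, beside 50.2% of tested genes. Eif4g2 is the member whose annotated coding sequence begins with GTG.

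**Figure D2:**
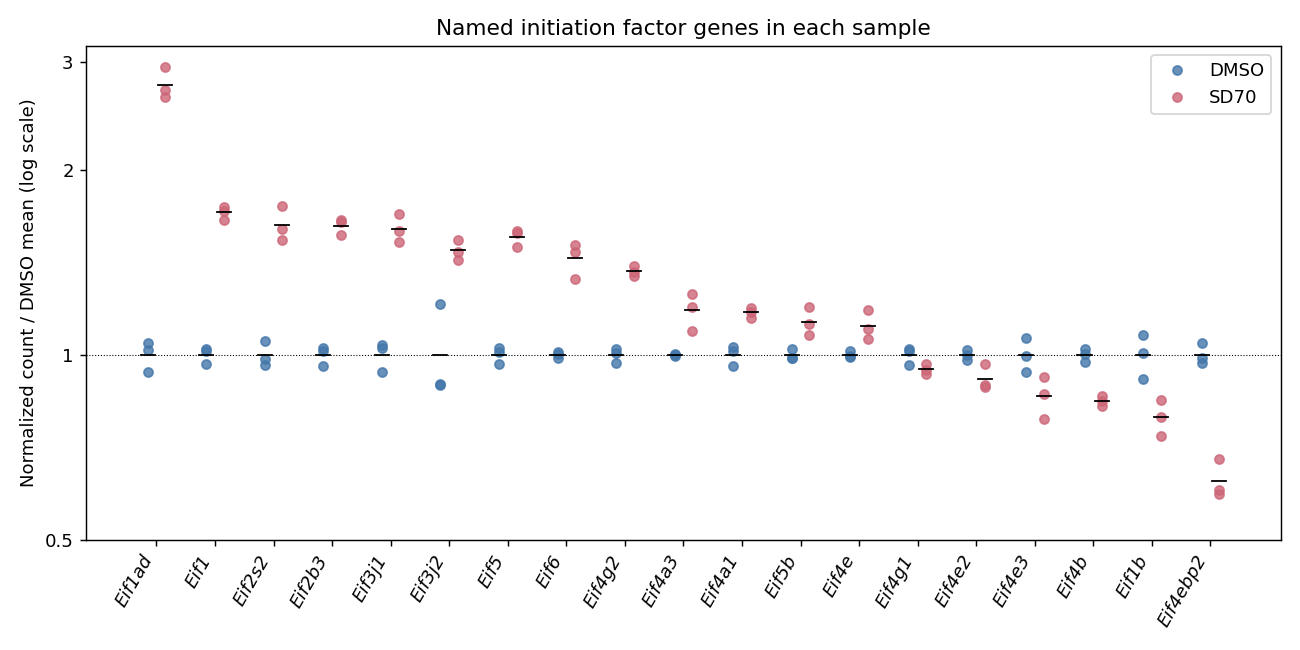
Normalised read count of 19 members in each of the 6 samples, divided by the mean of the DMSO samples of that gene (y axis, log scale; points are samples, short lines are group means). The SD70 samples of Eif1ad lie furthest above 1 and those of Eif4ebp2 furthest below. The genes drawn are a selection, mostly of called members, and among them the groups overlap only for Eif4g1. Over all 45 tested members the SD70 samples lay entirely above for 19 and entirely below for 9, beside 32.8% and 31.6% of all genes tested.

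In eIF2, the GTPase that carries the initiator tRNA, the subunits had unequal fold changes. Eif2s2 (gene 67204, chr2:154871410-154892906), which encodes the β subunit, had 5601, 6124 and 5725 normalised counts under DMSO and 10172, 8938 and 9316 under SD70, a log2 fold change of 0.70 (SE 0.0525, edgeR adjusted p = 1.02e-13). The groups lay far apart. Eif2s3x, which encodes the GTP-binding γ subunit, stood at 160 ± 1.61 FPKM under DMSO and 165 ± 7.65 under SD70 (log2 fold change 0.08, edgeR adjusted p = 0.16). The level of Eif2s2 was 0.948 ± 0.0378 times that of Eif2s3x under DMSO and 1.46 ± 0.0326 times under SD70 (two-sided exact permutation p = 0.1, n = 3 each). The α subunit gene Eif2s1, which was not a member, had a log2 fold change of 0.19 (edgeR adjusted p = 0.00126). Eif2a and Eif2d, which can deliver tRNA to the ribosome without eIF2, had log2 fold changes of -0.10 and -0.02 and were not called.

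eIF2B, the exchange factor that reloads eIF2 with GTP, had unequal fold changes as well. Eif2b3 (gene 108067, chr4:117019399-117086852), which encodes the γ subunit of its catalytic part, had 687, 737 and 728 normalised counts under DMSO and 1188, 1124 and 1182 under SD70, a log2 fold change of 0.70 (SE 0.0598, edgeR adjusted p = 3.30e-12). The lowest SD70 sample exceeded the highest DMSO sample by a wide margin. Eif2b2 and Eif2b4, of its regulatory part, had log2 fold changes of 0.05 and -0.05 (edgeR adjusted p = 0.53 and 0.57). Eif2b3 was 2.09 times as abundant per length as Eif2b4 under DMSO and 3.49 times under SD70. Outside the members, Eif2b1 had a log2 fold change of 0.36 (edgeR adjusted p = 4.35e-05) and Eif2b5 one of -0.02.

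eIF3 is the largest initiation factor, a complex that bridges the small subunit and eIF4G. Its 14 genes gave 5 calls higher (35.7%) and 1 lower (7.14%), beside 25.8% and 24.2% of all genes tested, with a median log2 fold change of 0.00, and their summed level was 2258 ± 10.1 FPKM under DMSO and 2280 ± 15.4 under SD70 (SD, n = 3 each), groups that overlapped. The rise concerned the loosely attached subunit eIF3j and a few others. Eif3j1 (gene 78655, chr2:122028580-122053632) had 2418, 2644 and 2678 normalised counts under DMSO and 4374, 3938 and 4104 under SD70, a log2 fold change of 0.68 (SE 0.053, edgeR adjusted p = 2.93e-13). Its near-identical copy Eif3j2 was scarce, at 78.0, 77.7 and 105.5 normalised counts and then 134, 128 and 124 (log2 fold change 0.56, SE 0.138, edgeR adjusted p = 6.71e-04). Both had fractional counts in every sample, so the division of reads between them is uncertain.

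Eif3c, which belongs to the core of the complex, rose from 7137, 7207 and 7241 to 9902, 9821 and 10158 normalised counts (log2 fold change 0.47). The core subunit gene Eif3a (log2 fold change 0.23) and Eif3d (0.20), whose product can bind caps, rose less. Eif3h fell by 0.16 on the log2 scale (SE 0.0504, edgeR adjusted p = 0.00577), and its call was lost in 4 of the 6 analyses that left out 1 sample (without DMSO replicate 1 or 3, or SD70 replicate 2 or 3), with an adjusted p-value of up to 0.0471. The call of Eif3d was lost without DMSO replicate 3 (edgeR adjusted p = 0.0105). The other 8 were not called, with log2 fold changes of 0.05 for Eif3g, 0.02 for Eif3b, -0.01 for Eif3m, -0.02 for Eif3l, -0.03 for Eif3e, -0.11 for Eif3k, -0.12 for Eif3f and -0.13 for Eif3i. For Eif3f and Eif3i every SD70 sample lay below every DMSO sample. Both were called lower with library totals (edgeR adjusted p = 0.00885 and 0.00433) and with upper-quartile scaling (0.00723 and 0.00374). The sign of Eif3b turned with library totals or upper-quartile scaling.

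The range of eIF3 levels per length was set by Eif3h and Eif3j1. Leaving out Eif3j2, the highest of the 13 mean levels was 5.15 times the lowest under DMSO and 2.88 times under SD70. Eif3h was highest in both groups, at 362 ± 18.3 and 318 ± 11.8 FPKM, and Eif3j1 was lowest, at 70.3 ± 3.67 and 110 ± 5.74 (SD, n = 3 each). Without Eif3j1 as well, the ratios over 12 genes were 3.09 and 2.75, so Eif3j1 carried most of the difference, which was not tested. Neighbours in the order such as Eif3g, Eif3l and Eif3m, at 123, 123 and 118 FPKM under DMSO, had spreads that overlapped.

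**Figure D3:**
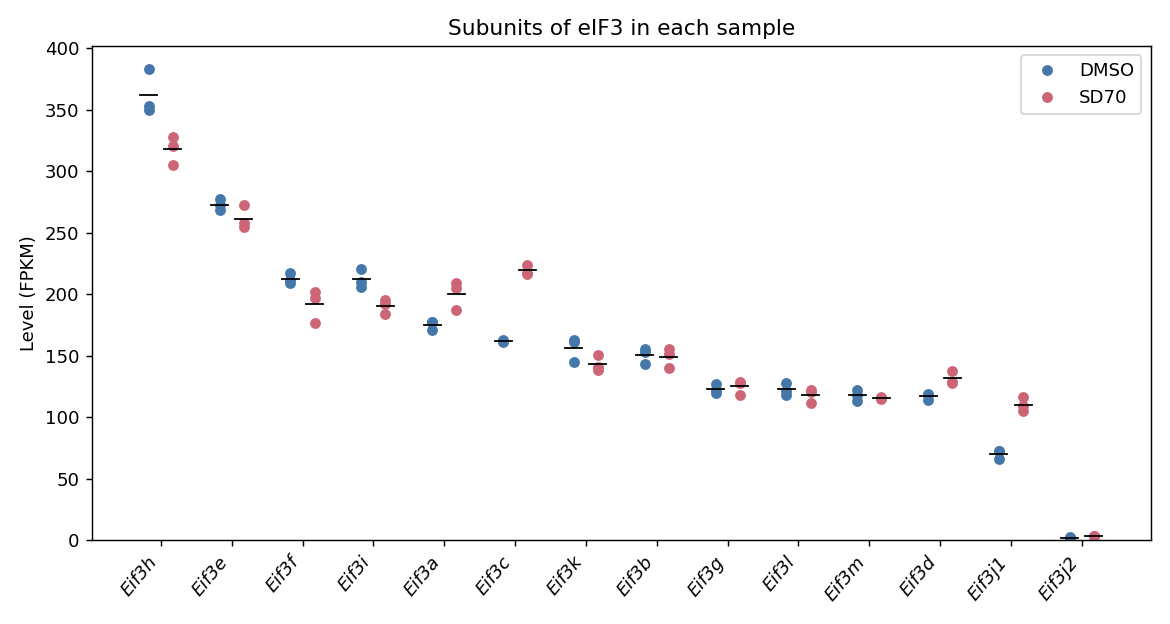
FPKM of the 14 eIF3 subunit genes in each sample (points are samples, lines are group means), ordered by the DMSO mean. Eif3h is highest in both groups, Eif3c and Eif3j1 stand clearly higher under SD70, and Eif3j2 lies near 0.

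The eIF4A helicases unwind the leader of the mRNA, and all 3 genes were called higher, beside 25.8% of all genes tested, although the call of Eif4a2 was not stable. Eif4a1 (gene 13681, chr11:69666936-69672423), the abundant form at 718 ± 23.8 FPKM under DMSO and 826 ± 13.5 under SD70, had 19249, 20379 and 20670 normalised counts and then 23635, 23996 and 23107 (log2 fold change 0.23, SE 0.0477, edgeR adjusted p = 9.27e-05). Eif4a3, whose product works in the exon junction complex rather than in eIF4F, had 1833, 1828 and 1820 and then 1998, 2185 and 2292 (log2 fold change 0.24, edgeR adjusted p = 3.01e-04). The groups were separate for both genes. For Eif4a2 the log2 fold change was 0.16 (edgeR adjusted p = 0.00779), with 4225, 3898 and 3656 normalised counts and then 4514, 4243 and 4439. This call was lost in 10 of the 15 alternative analyses, with an adjusted p-value of up to 0.132.

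Eif4b, a helper of eIF4A, went the other way. Eif4b (gene 75705, chr15:102073773-102097173), which encodes a protein that stimulates the helicase, had 14445, 13719 and 14168 normalised counts under DMSO and 11857, 11666 and 12080 under SD70, and fell by 0.25 on the log2 scale (SE 0.0472, edgeR adjusted p = 2.65e-05). The related Eif4h had a log2 fold change of -0.10 (edgeR adjusted p = 0.0736), with every SD70 sample below every DMSO sample. Together they stood at 346 ± 3.06 FPKM under DMSO and 294 ± 5.12 under SD70 (SD, n = 3 each), a ratio of 0.850.

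Among the members of the eIF4E and eIF4E-binding families, the largest change was in a repressor. Eif4ebp2 (gene 13688, chr10:61428491-61452790) encodes one of the small proteins that hold eIF4E away from eIF4G until growth signals phosphorylate them. It had 3655, 3583 and 3860 normalised counts under DMSO and 2231, 2498 and 2196 under SD70, and fell by 0.68 on the log2 scale (SE 0.0537, edgeR adjusted p = 4.27e-13). The highest SD70 sample was well below the lowest DMSO sample. Its relative Eif4ebp1, not a member, moved the opposite way with a log2 fold change of 0.44 (edgeR adjusted p = 2.37e-09) and was the more abundant of the 2 per length, at means of 344 FPKM under DMSO and 459 under SD70, beside 49.0 and 30.0 for Eif4ebp2. Eif4ebp3, at 36 to 55 counts, was not called (log2 fold change -0.03). Eif4enif1, which carries eIF4E into the nucleus, had a log2 fold change of 0.16 (edgeR adjusted p = 0.0112).

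Eif4e itself (gene 13684, chr3:138526191-138559696) had 3415, 3487 and 3420 normalised counts under DMSO and 4074, 3789 and 3648 under SD70. The groups did not overlap, and the log2 fold change was 0.16 (SE 0.0506, edgeR adjusted p = 0.00766), but the call was lost in 10 of 15 alternatives, with an adjusted p-value of up to 0.0515. Its paralogs lay on the other side. Eif4e2, whose product binds caps but represses translation, had 2840, 2951 and 2888 and then 2582, 2795 and 2563 (log2 fold change -0.13, edgeR adjusted p = 0.0293). Eif4e3 had 254, 224 and 238 and then 206, 188 and 220 (log2 fold change -0.23, edgeR adjusted p = 0.0492). Neither passed the threshold of 0.01, but Eif4e2 did in 3 of 15 alternatives. These were library totals (edgeR adjusted p = 0.00542), upper-quartile scaling (0.00452) and the fit without SD70 replicate 2 (0.0099). The share of Eif4e among the 3 paralogs was 54.0% ± 0.152 of FPKM under DMSO and 58.6% ± 2.34 under SD70 (two-sided exact permutation p = 0.1). The level of Eif4ebp2 relative to Eif4e was 0.416 ± 0.0253 under DMSO and 0.233 ± 0.0184 under SD70 (SD, n = 3 each, two-sided exact permutation p = 0.1).

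Among the scaffolds, the gene that lacks the eIF4E-binding region was the one that rose. Eif4g2 (gene 13690, chr7:111067985-111083030), also known as DAP5, had 17432, 18322 and 18084 normalised counts under DMSO and 24507, 24138 and 25086 under SD70, a log2 fold change of 0.45 (SE 0.0471, edgeR adjusted p = 3.38e-10). Eif4g1, the main scaffold of eIF4F, had 11818, 12551 and 12469 and then 11438, 11606 and 11848 (log2 fold change -0.08, edgeR adjusted p = 0.155). The SD70 and DMSO samples overlapped for Eif4g1 and not for Eif4g2. Eif4g3 had 3164, 3003 and 2885 normalised counts under DMSO and 3280, 2904 and 3111 under SD70 (log2 fold change 0.04, edgeR adjusted p = 0.554). With DMSO, Eif4g1 and Eif4g2 took near-equal shares of the summed FPKM of the 3 genes, 44.5% ± 0.502 and 45.3% ± 0.159. With SD70 these shares were 36.8% ± 0.514 and 54.1% ± 0.124 (SD, n = 3 each, two-sided exact permutation p = 0.1 for both).

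**Figure D4:**
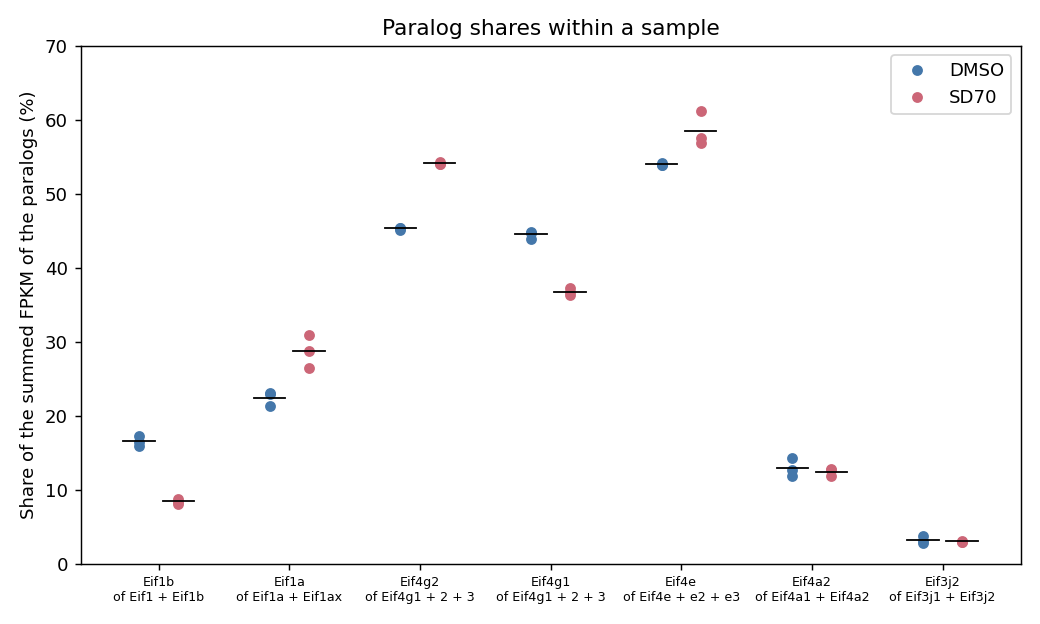
Share of a paralog in the summed FPKM of its set, in percent, in each sample (points are samples, lines are group means). Eif1b and Eif4g1 have lower shares under SD70, Eif1a, Eif4g2 and Eif4e higher ones, and the groups overlap for Eif4a2 and Eif3j2.

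The shares of 8 sets of paralogs were compared. In the remaining sets the groups overlapped. Eif4a2 made up 12.9% of Eif4a1 and Eif4a2 under DMSO and 12.5% under SD70 (two-sided exact permutation p = 0.8), and Eif3j2 3.24% and 3.01% of the Eif3j pair (p = 0.7 in the same exact test). Eif5a2 stayed at 0.103% and 0.109% of the Eif5a pair.

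Both genes of the eIF5 and eIF5B family and Eif6 were called higher, and neither eIF5A gene was called, beside 25.8% of all genes tested called higher and 49.9% called in either direction. Eif5 (gene 217869, chr12:111538101-111546753), which encodes the activator of GTP hydrolysis by eIF2, had 5883, 6160 and 6248 normalised counts under DMSO and 9619, 9144 and 9700 under SD70, a log2 fold change of 0.64 (SE 0.0487, edgeR adjusted p = 1.85e-13). Eif5b, needed for joining of the large subunit, had 6416, 6625 and 6420 and then 7772, 6988 and 7274 (log2 fold change 0.18, edgeR adjusted p = 0.00232). The groups were separate for both, but the call of Eif5b was lost in 7 of 15 alternatives, with an adjusted p-value of up to 0.0308. The counts of Eif5b were not whole in 5 of the 6 samples. Eif5b overlaps Rev1 by 2794 bases, and Rev1 had means of 966 and 976 normalised counts.

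Eif5a, whose hypusine-bearing product helps ribosomes past difficult peptide bonds, was the most abundant member at 863 ± 31.0 FPKM under DMSO and 852 ± 7.29 under SD70 (SD, n = 3 each), with a log2 fold change of 0.00 (edgeR adjusted p = 0.946) whose sign depended on the scaling. Its counts were not whole in any of the 6 samples. Eif5a2, at 50 to 88 counts, had a log2 fold change of 0.10 (edgeR adjusted p = 0.634). Eif6 (gene 16418, chr2:155819837-155826925), which keeps the large subunit from joining the small one too early, had 1560, 1581 and 1594 normalised counts under DMSO and 2100, 2384 and 2322 under SD70, a log2 fold change of 0.52 (SE 0.0548, edgeR adjusted p = 4.09e-10). All 3 SD70 samples were above the DMSO samples.

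Regulators of initiation outside the members were read from a list of 22 cofactors, of which 8 (36.4%) were called higher and 5 (22.7%) lower, beside 25.8% and 24.2% of all genes tested. The 2 kinases that phosphorylate eIF4E moved in opposite directions. Mknk1 had 739, 837 and 776 counts under DMSO and 2219, 2102 and 2227 under SD70 (log2 fold change 1.58, SE 0.0625, edgeR adjusted p = 8.39e-21). Mknk2 had 2028, 2030 and 2121 and then 920, 1015 and 766 (log2 fold change -1.10, SE 0.0594, edgeR adjusted p = 1.72e-17). The ratio of Mknk1 to Mknk2 FPKM was 0.509 ± 0.0373 under DMSO and 3.31 ± 0.586 under SD70 (SD, n = 3 each, two-sided exact permutation p = 0.1). Pdcd4, an inhibitor of eIF4A, fell by 0.70 on the log2 scale (edgeR adjusted p = 1.07e-10). The others called higher were Dhx36, Denr, Paip2b, Larp1, Ddx3x, Dhps and Bzw2 (log2 fold changes of 0.36 to 0.48), and the others called lower were Gigyf2, Cyfip1 and the poly(A)-binding protein gene Pabpc1 (-0.24 to -0.20).

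Of 11 tested genes on a list of elongation factors and the enzymes that modify them, 5 (45.5%) were called higher and 2 (18.2%) lower, beside the same 25.8% and 24.2%. None of the 5 encodes an elongation factor proper. The diphthamide enzymes Dph5, Dph1 and Dph2, which modify eEF2, rose by log2 fold changes of 0.91, 0.82 and 0.60, and Eef2k, the kinase that inhibits eEF2, by 0.50, whereas Eef2 and Eef1g fell by 0.23 and 0.18 on the log2 scale. The call of Eef1g was lost without SD70 replicate 1 (edgeR adjusted p = 0.0104). The remaining gene that rose was Eef1e1 (0.62), which encodes a component of the tRNA synthetase complex. The other elongation factors were not called, with log2 fold changes of -0.08 for Eef1a1, -0.07 for Eef1b2, 0.04 for Eef1d and 0.21 for Eefsec. Of 7 termination and recycling genes, 5 (71.4%) were called higher, beside 25.8% of all genes tested, led by the release factor gene Etf1 (log2 fold change 0.69, edgeR adjusted p = 2.81e-14), and the other two were not called. The call of Gspt1, a release factor gene, was lost without DMSO replicate 2 (edgeR adjusted p = 0.0125) and in both limma fits on FPKM. The median log2 fold change was 0.21 for the elongation list with its modifying enzymes, 0.34 for termination and recycling and 0.09 for cofactors, beside 0.05 for the initiation factors and 0.00 for all genes tested.

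**Figure D5:**
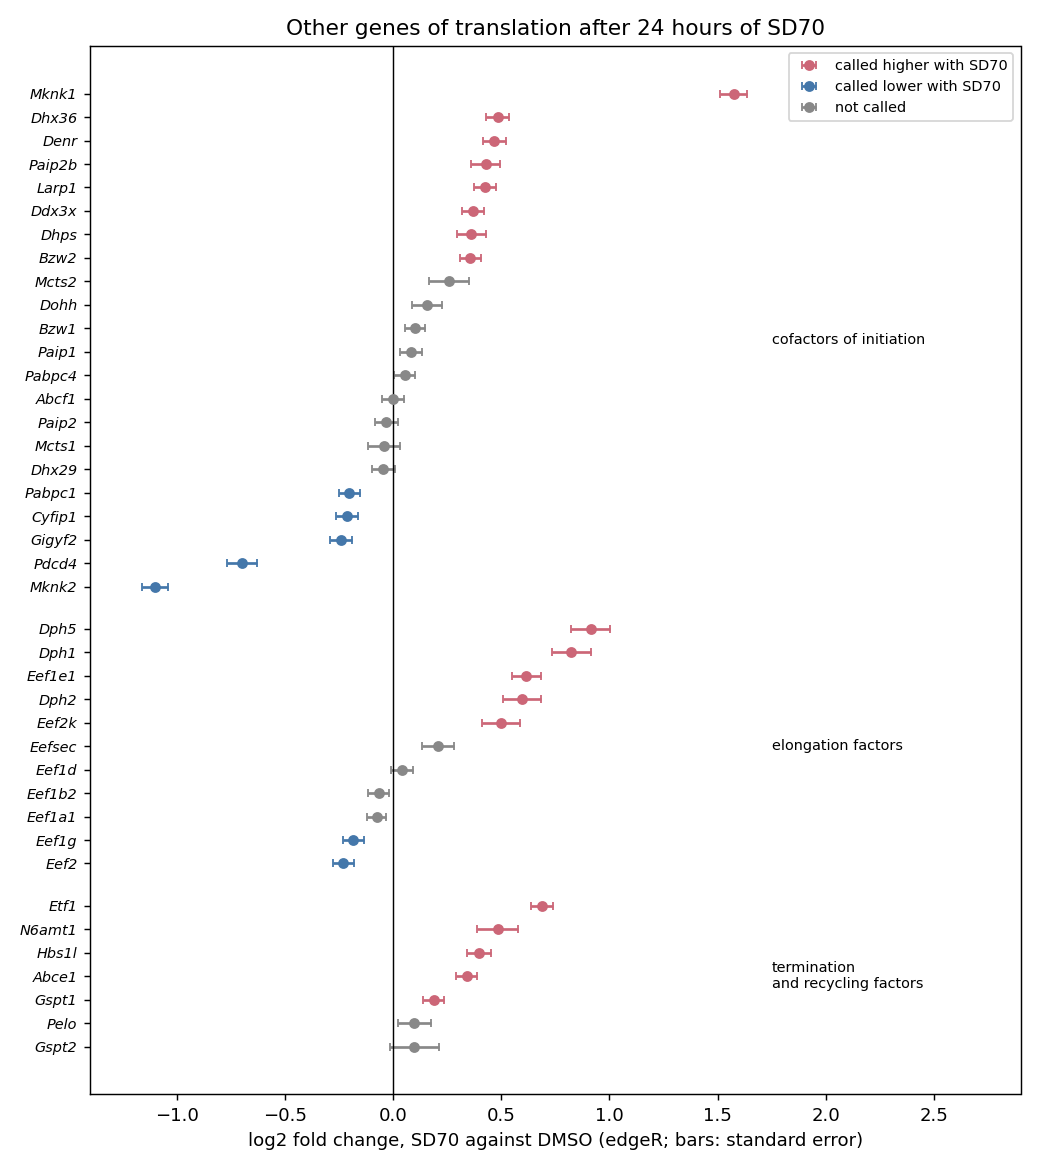
Log2 fold changes, SD70 against DMSO (edgeR estimates with standard errors), of the listed cofactors of initiation, elongation factors with their modifying enzymes, and termination and recycling factors. Mknk1 and Mknk2 lie past 1 and -1, at 1.58 and -1.10, and every other gene lies between them.

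Promoters were compared for members that moved in different directions. RefSeq promoters (GRCm38.p6) were found for 36 of the 47 members, and the 250 bases before each start were searched on both strands, counting a gene once where any of its promoters held the motif. CACGTG, the E-box bound by Myc and related factors, occurred in 9 of the 36 (25%), beside 6.86% of 27025 genes with a promoter and 10.0% of 9284 tested genes. The 9 were Eif1b, Eif3f, Eif3k, Eif4a1, Eif4e, Eif4g1, Eif4h, Eif5a and Eif5a2. CCAAT occurred in 11 of the 36 (30.6%), beside 37.5% of all genes with a promoter and 42.0% of tested genes. Among members called higher it was in the promoters of Eif1, Eif4a1 and Eif4e (3 of 13), so the last 2 held both motifs. TGATGNAAN, a form of the C/EBP-ATF response element, occurred in the promoter of Eif2s3x alone (2.78%), beside 3.89% of all and 2.43% of tested genes. TGACGTCA, the cAMP response element, matched no member promoter, beside 1.77% of all and 3.16% of tested genes. A match is a description and not a binding site.

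The sites of the oppositely changed Eif1 and Eif1b, and of the 2 E-box genes called higher, are given 5′ to 3′ on the strand of the gene, with the motif in capitals. They lie at chr11:100319850-100319879 (+), chr9:120492570-120492599 (+), chr11:69672595-69672624 (-), chr3:138527028-138527057 (+) and chr3:138527192-138527221 (+), in the order shown, the last 2 being the sites of Eif4e. Eif4e has 2 promoters, and both of its sites lie inside its gene span of chr3:138526191-138559696, not before the first base of that span.
Eif1: tccgccccccgaCCAATaggaagccgcagc
Eif1b: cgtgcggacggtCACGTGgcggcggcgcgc
Eif4a1: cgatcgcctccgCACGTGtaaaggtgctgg
Eif4e, first site: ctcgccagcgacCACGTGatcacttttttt
Eif4e, second site: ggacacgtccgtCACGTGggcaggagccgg
The E-box occurred in 2 of 13 members with a promoter that were called higher and in 1 of 3 called lower, beside 10.0% of tested genes. Of these, Eif4e is the one whose call was lost in 10 of 15 alternatives.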

How the data were processed

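Messenger RNA of the 6 samples (3 with DMSO, 3 with SD70, 24 hours each) had been selected with oligo(dT), primed with random hexamers and sequenced on a BGISEQ-500. Per the study's methods, the authors aligned reads with HISAT to GRCm38.p6, while the submitters' processing notes name StringTie 1.3.3b and mm8. Coordinates here are those of RefSeq for GRCm38.p6, matched by gene ID and not taken from the deposited tables. The authors deposited an expected count per gene and sample, of which 8.84% to 9.28% were not whole, and a second value headed only "exp". This deposited value, which the authors had scaled to length and depth, was read as FPKM, because counts divided by it and by the library total gave lengths with a median of 2707 bases. The longest and shortest of the 6 lengths lay within 5% of each other for 76.8% of 11526 genes and for 43 of 45 members, the exceptions being Eif4ebp2 (8.37%) and Eif4e2 (8.36%), so the length used was set per sample.

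Counts were rounded and tested with edgeR 4.0.16 in R 4.3.3 (TMM scaling, filterByExpr, robust quasi-likelihood fit, Benjamini-Hochberg adjustment over 11552 genes). The biological coefficient of variation was 0.046. On simulated data for this comparison (11552 genes), edgeR called 85 of 100 genes changed by a log2 fold of 0.5 and 96 of 100 changed by 1, with 1 false call. The simulation changed only these genes and gave all genes the same variation, whereas 49.9% of genes were called in the data. It gives no rate for smaller changes, such as the members' median absolute log2 fold change of 0.16. No 2 libraries agreed within sampling noise. FPKM gave levels between genes, paralog shares and ratios (6 ratios), compared with exact permutation tests. The 6 ratios were not planned. Each set a called gene over a gene that was not called or was called the other way. All 6 had an exact permutation p of 0.1, which therefore adds no support to the calls. The members, families and gene lists were chosen with earlier results of these data known. Each tested member was named with its log2 fold change. Counts in every sample were given for members past 2-fold, the 2 largest called changes of each family and paralogs with opposite signs, and also for Eif1a, Eif1ax, Eif3c, Eif4a2 and the kinases Mknk1 and Mknk2, which were added after their values were seen. Alternatives were other scalings (DESeq2 1.42.0 size factors, library totals, upper quartile), other count filters, a replicate block, each sample left out, the DESeq2 test, limma 3.58.1 on log2(FPKM + 1) and log2(FPKM + 0.1), which make 15, and 2 other thresholds (an adjusted p-value under 0.05, and a 2-fold minimum).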

Additional observations from a re-analysis of the deposited data

How the results depend on the processing

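The 45 log2 fold changes were recomputed under the 15 alternatives that kept the threshold, which gave 675 values, of which 606 kept direction and call, 32 lost the call, 9 gained one and 28 turned sign. The counts of members called higher and lower (18 and 4) were 14 to 18 and 3 to 4 when 1 sample was left out. For all genes these fits gave 2571 to 2804 higher and 2470 to 2570 lower, beside 2976 and 2791 with all samples. Library totals or upper-quartile scaling gave 15 and 7 members (all genes 2630 and 3165, and 2599 and 3212). The member counts were 19 and 8 at an adjusted p-value under 0.05 (all genes 3545 and 3408), and 1 and 0 with a 2-fold minimum. With that minimum, the counts were 380 and 301 for all genes, 1 higher and 0 lower for eIF1 and eIF1A, 0 in every other family, 0 for elongation and for termination, and 1 and 1 for cofactors. Members called lower in eIF3 (1) were 3 with library totals, upper-quartile scaling or an adjusted p-value under 0.05, and 0 to 1 with a sample left out. In eIF4E, 1 call higher became 0 with library totals, upper-quartile scaling, at least 10 counts in every sample or either limma fit, and was 0 to 1 with a sample left out, while calls lower (0) became 1 with either scaling, 2 at 0.05 and 0 to 1 with a sample left out. Among the eIF4E-binding proteins, calls higher (0) became 1 with the replicate block or at 0.05 and were 0 to 1 with a sample left out. Calls higher in eIF5 and eIF5B (2) were 1 with either scaling or either limma fit and 1 to 2 with a sample left out, and elongation calls lower (2) were 1 to 2, with 1 left without SD70 replicate 1. The cause was not tested.

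All sign changes were in members that were not called. With library totals and upper-quartile scaling, log2 fold changes were -0.0116 and -0.0161 for Eif1ax, -0.0222 and -0.0269 for Eif3b, -0.000187 and -0.00434 for Eif4g3, and -0.0338 and -0.0384 for Eif5a, under which the median of all genes moved to -0.0424 and -0.0468. The limma fits gave -0.0167 and -0.0168 for Eif3b and -0.0184 in both for Eif5a, and the filter of 10 counts -0.00672 for Eif5a. With a sample left out, the values ran from -0.00616 to 0.0680 for Eif1ax, -0.0540 to 0.0238 for Eif2d, -0.0205 to 0.0573 for Eif3b, -0.0612 to 0.0165 for Eif3l, -0.0407 to 0.00339 for Eif3m, -0.172 to 0.118 for Eif4ebp3, -0.00375 to 0.0849 for Eif4g3, -0.0235 to 0.0368 for Eif5a and -0.0265 to 0.263 for Eif5a2.

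The replicate numbers share no stated source. Deviations of same-numbered samples correlated at 0.157, 0.136 and 0.0907 over 9624 genes, and every sample correlated best with its own number, a hint from the data and not from the design. With the replicate block, 3043 genes were higher and 2870 lower, and 19 members were higher and 4 lower, the added one being Eif4enif1 (edgeR adjusted p = 0.00921). Depth limits the members with few counts, Eif4ebp3, Eif5a2, Eif2s3y and Eif4e1b.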
